A study of Mus musculus with 8 samples.

Results

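The clade A serpins described here are 10 genes: Serpina1a to Serpina1f, Serpina3n, Serpina6, Serpina7 and Serpina10. They were taken by gene symbol from a table of 23504 symbols, and each of the 10 had a row. They were chosen on earlier results of the same diet comparison, in which Serpina1a was among the genes with the largest differences, so their diet differences are a description: no p-value is given for them, and the threshold applied to all genes is counted for them with nothing read from it. Reads were found for 8 of the 10, and 5 had enough counts to enter the fit across all genes (Serpina1a, Serpina1b, Serpina1c, Serpina1d and Serpina1f).

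RNA was sequenced from the outer part of the renal cortex, dissected by hand after the capsule was removed, of wild-type C57Bl6/J mice. The groups were a high fat diet (4 libraries, A, B, F and G) and a control diet (4 libraries, I, J, L and M), each begun at 6 weeks of age and continued for 9 weeks, so that all mice were 15 weeks old. The labels name no other treatment, do not state the composition of the diets or, in words, the sex (each title holds an M that is not explained), and do not say whether each library is a separate mouse, so the p-values below measure only the spread between these libraries.

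Serpins inhibit serine proteases by offering an exposed reactive centre loop as bait. The protease cuts the loop after the residue called P1 and is trapped in a covalent complex, so the residue at P1 largely sets which proteases are held. Alpha-1-antitrypsin, the best known member of clade A, is secreted mainly by the liver and protects tissue from neutrophil elastase. Humans carry a single active gene for it, whereas the mouse has several close copies, Serpina1a to Serpina1e. Other clade A members have different tasks: Serpina6 and Serpina7 encode the plasma carriers of corticosteroids and of thyroid hormone, Serpina10 encodes the protein Z-dependent inhibitor of coagulation factor X, and Serpina3n encodes an acute-phase inhibitor that holds granzyme B in the mouse.

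The 6 Serpina1 genes lie side by side on the minus strand of chromosome 12, between 103688044 and 103958975 in GENCODE M21 on GRCm38, a stretch of 271 kb. Serpina1f spans 103688044 to 103695529, Serpina1d 103763594 to 103773592, Serpina1a 103853589 to 103863562, Serpina1c 103894926 to 103904887 and Serpina1e 103946931 to 103958975. The annotated bounds of Serpina1b, 103728156 to 103830373, enclose Serpina1d. Serpina10 and Serpina6 lie in the same neighbourhood, from 103614786 to 103631444 and from 103646630 to 103657212. Serpina3n lies on the plus strand of that chromosome, from 104406729 to 104414329, and Serpina7 on the X chromosome, from 139079257 to 139085236.

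The coding sequences of Serpina1a to Serpina1e are each 1242 bases long (413 residues) and were identical at 96.3% to 98.5% of bases over the 10 pairs. Serpina1a and Serpina1c were the closest pair, with 19 bases that differ. The copies are set apart above all in the reactive centre loop, which is why that window is shown. It covers codons 363 to 386 (72 bases, coding sequence, GENCODE M21 transcripts). Capitals mark every base at which the 5 copies are not all alike.
Serpina1a: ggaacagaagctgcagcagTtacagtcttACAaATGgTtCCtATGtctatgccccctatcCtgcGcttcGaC
Serpina1b: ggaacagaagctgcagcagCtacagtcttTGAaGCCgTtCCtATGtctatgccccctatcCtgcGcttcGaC
Serpina1c: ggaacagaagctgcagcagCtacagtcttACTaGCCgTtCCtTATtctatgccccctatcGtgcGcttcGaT
Serpina1d: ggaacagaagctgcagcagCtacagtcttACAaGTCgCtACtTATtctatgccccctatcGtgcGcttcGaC
Serpina1e: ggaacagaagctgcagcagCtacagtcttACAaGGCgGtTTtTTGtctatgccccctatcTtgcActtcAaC
In this window 17 positions differed among the copies, or 23.6% of its bases, against 69 of the other 1170 coding bases, or 5.9%. The P1 codon, number 377, stands just before the shared tct. It encodes methionine in Serpina1a and Serpina1b, the residue that human alpha-1-antitrypsin also has there, tyrosine in Serpina1c and Serpina1d, and leucine in Serpina1e.

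The close copies can share reads, which bears on every value of a single copy. Of all stretches of 50 bases in the transcripts, 60.7% of those of Serpina1a, 45% of those of Serpina1b, 73% of those of Serpina1c, 45.9% of those of Serpina1d and 37.9% of those of Serpina1e also occurred in another of the 10 genes. Serpina1a and Serpina1c shared most with each other. At 100 bases these shares were 48.4%, 24.6%, 58.5%, 26.3% and 18.2%, in the same order. Serpina1f, Serpina3n, Serpina6, Serpina7 and Serpina10 shared no such stretch with any of the 10, at either length. The sources used here do not give the read length. Reads that match several copies are divided among them by likelihood in RSEM, so the split between copies is an estimate, whereas the sum over Serpina1a to Serpina1e does not depend on it.

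Each library held between 23503593 and 30781585 expected counts. Rn45s, the ribosomal RNA precursor, took 50.3% of them in control J and between 1.23% and 13.3% in each of the other libraries. It was therefore left out before scaling, which left 13993652 counts in control J and up to 30403685 elsewhere. Levels are normalised counts scaled to 1e6 per library (CPM) of these totals. A gene with no counts in a library could still have had up to 3 counts there, or 0.0947 CPM in the deepest and 0.233 CPM in the shallowest library. These limits and those of low counts cover counting error only. Of 14711 genes tested with edgeR's quasi-likelihood test, 1469 (9.99%) passed an adjusted p under 0.05. On the high fat diet 715 of these rose and 754 (5.13%) fell. In 2576 genes (17.5%) the 4 values of one diet did not overlap those of the other.

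Serpina1a, with methionine at P1, had the lowest log2 fold change of the 5 fitted genes. It had 4.59, 2.59, 2.06 and 1.85 CPM in high fat A, B, F and G, against 14.3, 14.7, 11.4 and 10.2 CPM in control I, J, L and M. Every high fat library lay below every control library, and high fat A, the highest of its diet, was still less than the lowest control. The mean was 2.77 ± 1.25 CPM on the high fat diet and 12.7 ± 2.20 CPM on the control diet (SD, n = 4 each). The log2 fold change, high fat over control, was -2.19 ± 0.24 (SE), and 3 of the 14711 tested genes had a lower one. It ran from -2.54 without high fat A to -2.03 over the fits that left out 1 library. In these bulk libraries, fewer cells that express a gene and less of its RNA per cell cannot be told apart.

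Serpina1b, the other copy with methionine at P1, was a minor one. It had 1.68, 1.15, 0.967 and 1.32 CPM in high fat A, B, F and G, against 3.15, 2.27, 1.79 and 2.39 CPM in control I, J, L and M. The diets did not overlap, although the highest high fat value and the lowest control value were close. Its log2 fold change was -0.91 ± 0.21 (SE), with means of 1.28 ± 0.302 CPM on the high fat diet and 2.40 ± 0.563 CPM on the control diet (SD, n = 4 each).

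Serpina1d, with tyrosine at P1, was the most abundant of the close copies. It had 35.2, 23.6, 14.5 and 19.3 CPM in high fat A, B, F and G, against 53.4, 49.3, 31.0 and 39.2 CPM in control I, J, L and M. The diets overlapped in a single pair, since high fat A was above control L. The mean was 23.1 ± 8.87 CPM on the high fat diet and 43.2 ± 10.1 CPM on the control diet (SD, n = 4 each), and the log2 fold change was -0.90 ± 0.24 (SE).

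Serpina1c, also with tyrosine at P1 and the copy that shares most sequence with Serpina1a, had 1.32, 1.66, 1.32 and 0.752 CPM in high fat A, B, F and G, against 0.996, 2.01, 1.32 and 1.38 CPM in control I, J, L and M. The diets overlapped throughout, and both the highest and the second lowest value were those of control libraries. Its log2 fold change was -0.13 ± 0.26 (SE), at 1.26 ± 0.377 CPM on the high fat diet and 1.42 ± 0.422 CPM on the control diet (SD, n = 4 each). Without control J it was 0.02. Serpina1e, with leucine at P1, had no counts in any of the 8 libraries.

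Serpina1f, a more distant relative in the same cluster whose coding sequence is 1236 bases long, shares no stretch of 50 bases with the other 9 genes. Sequence shared with genes outside these 10 was not searched, and its expected counts were not whole in high fat A (685.98) and high fat G (456.95), so some of its reads may have been divided with another gene. It had 30.96, 18.9, 9.61 and 18.6 CPM in high fat A, B, F and G, against 61.2, 48.7, 30.90 and 48.7 CPM in control I, J, L and M. High fat A and control L were nearly equal, and the other 3 high fat libraries lay below every control. The mean was 19.5 ± 8.76 CPM on the high fat diet and 47.4 ± 12.5 CPM on the control diet (SD, n = 4 each), and the log2 fold change was -1.28 ± 0.29 (SE).

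**Figure D1:**
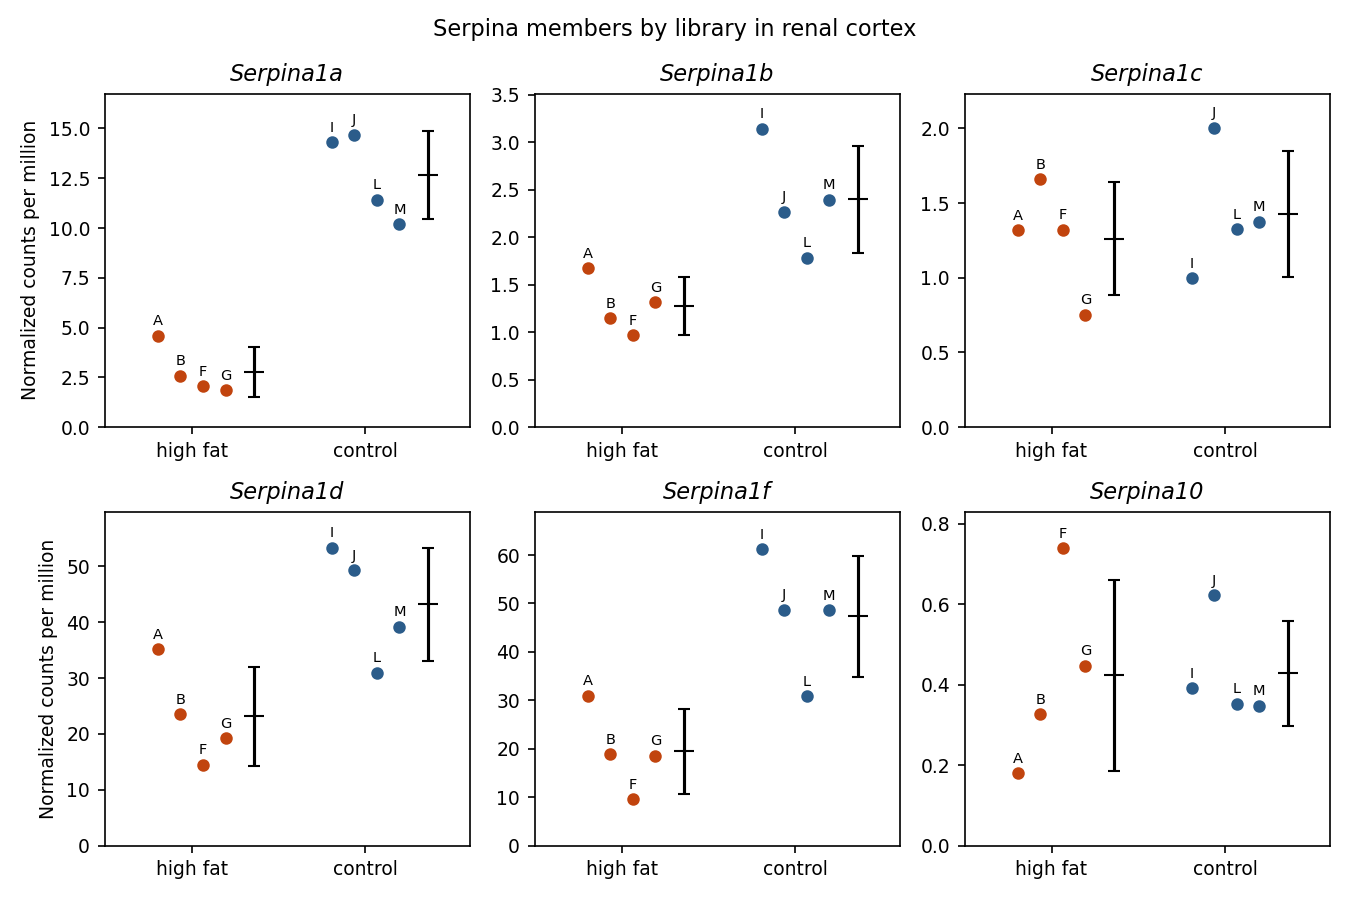
Each panel plots the normalised CPM of a Serpina gene (vertical axis, from 0, its own scale) in the 4 high fat libraries at left and the 4 control libraries at right, lettered by library, with the mean and SD as a bar. Serpina1a and Serpina1b show no overlap between diets, Serpina1d and Serpina1f overlap at high fat A and control L, and Serpina1c and Serpina10 overlap throughout.

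By the threshold used for all genes, 4 of the 5 tested members were called lower on the high fat diet (Serpina1a, Serpina1b, Serpina1d and Serpina1f) and 0 higher, where 5.13% of all tested genes fell. In 2 of the 5, Serpina1a and Serpina1b, the diets did not overlap, where 17.5% of all tested genes had no overlap. The median log2 fold change was -0.91 over the 5 and -0.0023 over all tested genes. The members were chosen on this contrast, so nothing is read from these counts, nor from how they move with the libraries. Without high fat G or without control I, Serpina1a alone was called. Without high fat B, high fat F or control J 2 of the 5 were called, and without control M 3. The log2 fold changes themselves stayed between -1.06 and -0.74 for Serpina1b, between -1.17 and -0.73 for Serpina1d and between -1.59 and -1.05 for Serpina1f in the fits that left out 1 library, the lowest each time being the fit without high fat A.

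**Figure D2:**
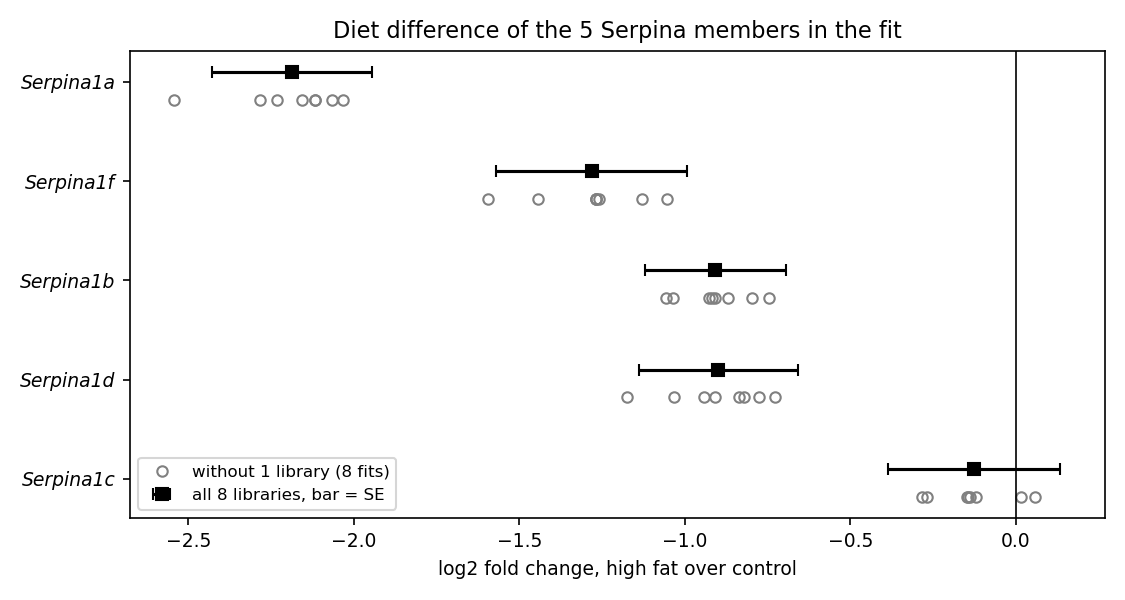
Log2 fold change, high fat over control, of the 5 Serpina genes in the fit: filled squares are the fit to all 8 libraries with its SE as a bar, and open circles are the 8 fits that each leave out 1 library. Serpina1a lies at -2.19 and has no circle above -2.03, while the circles of Serpina1c lie on both sides of 0.

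The remaining 4 genes were at the limit of detection. Serpina6, the corticosteroid carrier, had no counts in any library. Serpina7, the thyroid hormone carrier, had 2, 1, 3 and 5 counts in high fat A, B, F and G, against 6, 0, 1 and 3 in control I, J, L and M. Serpina3n had 8, 4, 3 and 5 counts in the high fat libraries and 2, 1, 2 and 6 in the control libraries, or 20 in all on the high fat diet and 11 on the control diet. Serpina10 had 4, 7, 18 and 11 counts in the high fat libraries and 10, 8, 10 and 11 in the control libraries, which gave 0.423 ± 0.237 CPM on the high fat diet and 0.428 ± 0.131 CPM on the control diet (SD, n = 4 each). All of these ranges overlapped, and at this depth no difference was detectable.

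Levels of different genes can be compared only per length, for which FPKM (depth-scaled fragments per kilobase of transcript) rescaled to the totals without Rn45s were used. On this scale the order on the control diet was Serpina1d, Serpina1f, Serpina1a, Serpina1b, Serpina1c, Serpina10, and then Serpina3n and Serpina7. The level of Serpina1d was 16.6 ± 6.37 FPKM on the high fat diet and 31.05 ± 7.24 FPKM on the control diet (SD, n = 4 each). Serpina1f was at 6.47 ± 2.92 FPKM on the high fat diet and 15.8 ± 4.18 FPKM on the control diet, below Serpina1d in every library. In the authors' FPKM by Ensembl gene, not rescaled here, Serpina1f averaged 9.84 on the high fat diet and 23.3 on the control diet. Serpina1d is not listed there, so its distance from Serpina1f could not be compared on that scale. Serpina1a was at 1.65 ± 0.750 FPKM on the high fat diet and 7.56 ± 1.31 FPKM on the control diet. Its control values lay well above those of Serpina1b, whereas on the high fat diet the ranges of these genes overlapped. Serpina1b had 0.928 ± 0.222 FPKM on the high fat diet and 1.75 ± 0.413 FPKM on the control diet, and Serpina1c had 0.916 ± 0.275 FPKM on the high fat diet and 1.03 ± 0.300 FPKM on the control diet. Serpina1b and Serpina1c overlapped in range on both diets and so were not separated beyond their spread. Serpina10 averaged 0.278 FPKM on the high fat diet and 0.284 FPKM on the control diet. The lowest were Serpina3n, at 0.109 FPKM on the high fat diet and 0.0531 FPKM on the control diet, and Serpina7, at 0.0513 FPKM on the high fat diet and 0.0407 FPKM on the control diet. Their ranges overlapped on both diets, and on the high fat diet those of Serpina10 and Serpina3n did too.

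Taken as a whole, the alpha-1-antitrypsin copies were lower on the high fat diet whatever the split of shared reads among them. Their summed expected counts were not whole in control I (1836.18), so some reads may have been divided with another gene. The sum of Serpina1a to Serpina1e was 42.8, 29.0, 18.8 and 23.2 CPM in high fat A, B, F and G, against 71.8, 68.2, 45.5 and 53.1 CPM in control I, J, L and M. No high fat library reached the lowest control, control L, though high fat A came close to it. The log2 fold change of the sum was -1.07, and ran from -1.33 to -0.91 over the fits that left out 1 library.

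The make-up of this sum also differed between the diets. Serpina1a was chosen on this same contrast, so its share and its ratio to Serpina1d repeat its lower level and are no further support. They also rest on the estimated split of shared reads, and the same holds for the grouping by P1 below. Serpina1a supplied 10.7%, 8.93%, 10.9% and 7.98% of the summed counts in high fat A, B, F and G, against 19.9%, 21.5%, 25.1% and 19.2% in control I, J, L and M. These ranges were far apart, and the share averaged 9.64% ± 1.42 on the high fat diet and 21.4% ± 2.63 on the control diet (SD, n = 4 each). Serpina1d held most of the rest, with 80.9% ± 2.76 on the high fat diet and 72.1% ± 2.81 on the control diet. The share of Serpina1b was 4.68% ± 0.870 on the high fat diet and 4.04% ± 0.535 on the control diet, with overlapping ranges. Serpina1c held 4.77% ± 1.93 on the high fat diet and 2.46% ± 0.730 on the control diet. Serpina1a per Serpina1d count was 0.0961 to 0.142 in the high fat libraries and 0.260 to 0.369 in the control libraries, while Serpina1b per Serpina1d count averaged 0.0579 on the high fat diet and 0.0560 on the control diet and did not separate them. Serpina1f per Serpina1d count was 0.664 to 0.963 in the high fat libraries and 0.989 to 1.24 in the control libraries. These ranges did not overlap, though the highest high fat value (high fat G) was close to the lowest control value (control J). Both genes were chosen on this contrast, so their ratio repeats their levels and is no further support.

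Grouped by the residue at P1, the methionine copies (Serpina1a with Serpina1b) summed to 6.27, 3.74, 3.02 and 3.17 CPM in high fat A, B, F and G, against 17.5, 17.0, 13.2 and 12.6 CPM in control I, J, L and M. The tyrosine copies (Serpina1c with Serpina1d) summed to 36.5, 25.2, 15.8 and 20.03 CPM in the high fat libraries, against 54.4, 51.3, 32.3 and 40.6 CPM in the control libraries. Methionine copies therefore made up 14.3% ± 1.37 of the counts on the high fat diet and 25.5% ± 2.42 on the control diet (SD, n = 4 each). The highest high fat share was 16.1% and the lowest control share 23.7%. Serpina1a supplied most of the methionine counts on both diets, and the lower methionine share came from this copy alone. The share of Serpina1b, the other methionine copy, was 4.68% ± 0.870 on the high fat diet and 4.04% ± 0.535 on the control diet. The counts of Serpina1a depend in part on reads shared with Serpina1c, a tyrosine copy.

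**Figure D3:**
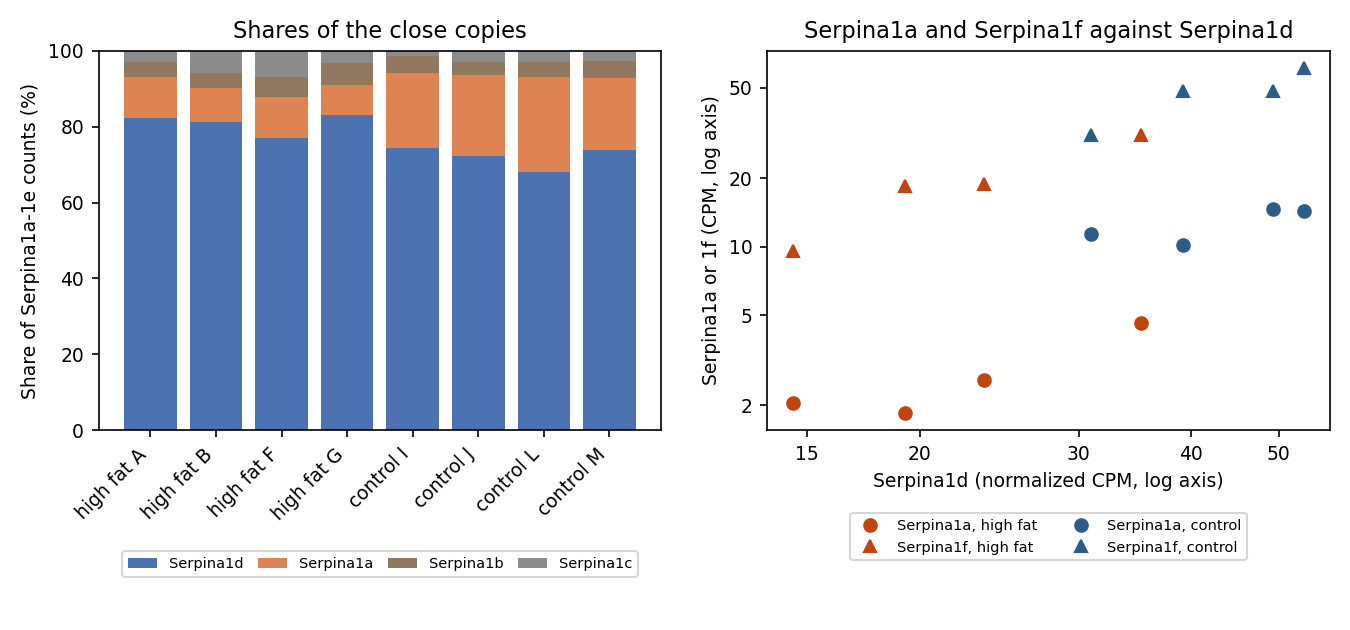
Left, share of the summed Serpina1a to Serpina1e counts (percent) held by each copy in every library, and right, Serpina1a (circles) and Serpina1f (triangles) against Serpina1d in CPM on log axes, high fat in orange and control in blue. Serpina1a holds 7.98% to 10.9% of the sum in the high fat libraries and 19.2% to 25.1% in the control libraries, and the circles of the diets fall on separate levels.

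Within each diet the genes varied together, apart from Serpina1c, though many other genes followed Serpina1a as closely. High fat A was the highest of its diet for Serpina1a, Serpina1b, Serpina1d and Serpina1f, and high fat F was the lowest for Serpina1b, Serpina1d and Serpina1f. Among the controls, I was the highest and L the lowest for Serpina1b, Serpina1d and Serpina1f. After each diet's mean log2 CPM was subtracted, Pearson's r over the 8 libraries was 0.95 between Serpina1d and Serpina1f, 0.90 between Serpina1b and Serpina1f, 0.86 between Serpina1a and Serpina1d, 0.85 between Serpina1b and Serpina1d, 0.70 between Serpina1a and Serpina1f and 0.61 between Serpina1a and Serpina1b. Serpina1c gave r between -0.35 and 0.30 with the others. Ranked by r with Serpina1a among 13447 genes, Serpina1d was at 88, Serpina1f at 604 and Serpina1b at 1171. By r with Serpina1d, Serpina1f was at 8, and by r with Serpina1b, Serpina1f was at 19 and Serpina1d at 54. These are descriptions, since all genes share the same libraries and their scaling, and the close copies share reads. Serpina1d and Serpina1f share no stretch of 50 bases.

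**Figure D4:**
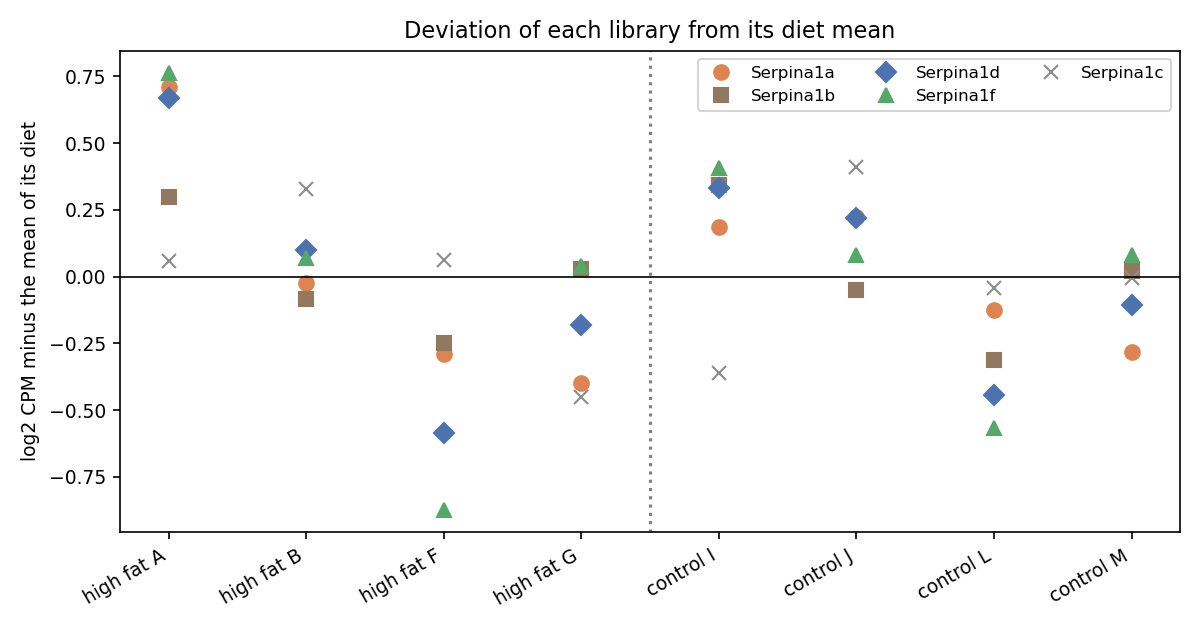
Deviation of each library from the mean log2 CPM of its own diet (vertical axis) for 5 Serpina genes, with the high fat libraries left of the dotted line and the control libraries right of it. Serpina1a, Serpina1b, Serpina1d and Serpina1f lie together above 0 in high fat A and control I and below 0 in high fat F and control L, while Serpina1c (crosses) does not follow them.

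Of 13447 genes that averaged at least 1 CPM, those whose log2 CPM was most like that of Serpina1a over the 8 libraries were Rbm39, Ppa1, Ahnak, Ddx39 and Rpl36al, with Pearson's r from 0.980 to 0.986. With the diet means subtracted they were 2310036O22Rik, Ccdc117, Sra1, Rpn1 and Gal3st1 (r from 0.962 to 0.982). For Serpina1f, a comparison added after the values were seen, the order was D830031N03Rik (r = 0.989), the organic anion transporter gene Slco4c1 (0.988), the urate transporter gene Slc22a13 (0.983), Serpina1d (0.979) and Serpinb6b (0.978). With the diet means subtracted the order for Serpina1f was D830031N03Rik, Slco4c1, Umod, Camk2b and Slc22a13 (r from 0.951 to 0.969). All of these r are over 8 libraries, and those without the diet means subtracted in part reflect the diet difference itself.

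A stretch of the promoters of the close copies is shown that was chosen for being alike. It therefore does not show how alike the whole promoters are. RefSeq promoters were given for 8 of the 10 genes. The windows of 119 bases (RefSeq, GRCm38.p6, minus strand) lie at chr12:103863621-103863739 for Serpina1a, chr12:103738196-103738314 for Serpina1b, chr12:103904958-103905076 for Serpina1c and chr12:103773630-103773748 for Serpina1d. They were aligned without gaps on the longest run of bases shared by Serpina1a to Serpina1e, which is 59 bases long and closes each window. Capitals mark every base at which these 5 copies are not all alike. The window of Serpina1e, at chr12:103956956-103957074, is counted but not shown, so a capital can stand where all rows shown agree.
Serpina1a: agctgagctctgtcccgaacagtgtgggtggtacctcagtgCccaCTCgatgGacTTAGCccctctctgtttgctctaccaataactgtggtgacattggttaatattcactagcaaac
Serpina1b: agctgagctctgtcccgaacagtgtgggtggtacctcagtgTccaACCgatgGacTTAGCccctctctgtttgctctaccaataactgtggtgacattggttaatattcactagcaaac
Serpina1c: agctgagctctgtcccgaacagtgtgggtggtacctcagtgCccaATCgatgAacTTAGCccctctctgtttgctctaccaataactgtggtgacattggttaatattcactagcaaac
Serpina1d: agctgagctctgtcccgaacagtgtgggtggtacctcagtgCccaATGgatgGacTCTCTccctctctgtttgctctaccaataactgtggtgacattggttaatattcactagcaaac
Over the 5 copies 10 of the 119 positions differed, all in the 60 bases before the shared run, which is identical by choice. Serpina1a differed from Serpina1c at 2 bases, from Serpina1b at 3 and from Serpina1d at 6. Serpina1d stood farthest from the others, with 6 or 7 bases that differ from each. These letters are a description of the windows and were not tested against the diet values.

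The counts of called genes in the lists that follow stand beside the 9.99% called among all tested genes, and with so few genes a list no share near it is a result about the list. Of 17 tested regulators known for the alpha-1-antitrypsin promoter and its neighbours, 3 rose on the high fat diet, none fell and 14 did not pass. Stat5a rose by 0.49 (edgeR adjusted p = 0.0037) and Stat5b by 0.27 (edgeR adjusted p = 0.0156) on the log2 scale, both being signal transducers of growth hormone. Hnf4a, a nuclear receptor of liver and proximal tubule, was at 944 ± 38.8 CPM on the high fat diet and 1041 ± 59.0 CPM on the control diet (SD, n = 4 each) and did not pass (edgeR adjusted p = 0.162). Without control J 3 were called, and with high fat G also left out 2. The median log2 fold change of the list was -0.0054, against -0.0023 over all tested genes.

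Other serpins were called about as often as genes at large. Of 15 further clade A genes with a row, 6 had no counts and only Serpina3g was tested, at 1.66 ± 0.376 CPM on the high fat diet and 1.21 ± 0.4999 CPM on the control diet (SD, n = 4 each), which did not pass. The list of other clades had a median log2 fold change of -0.09. Of its 14 tested serpins 1 fell, none rose and 13 did not pass, a share near the 9.99% over all genes. An unadjusted edgeR p under 0.05 was found for 6 of the 14. The share of all tested genes under that unadjusted threshold was not counted, so nothing is read from such counts, here or in later lists. The gene that fell was Serpinh1, the collagen chaperone of the endoplasmic reticulum, which inhibits no protease. It was at 87.1 ± 2.56 CPM on the high fat diet and 125 ± 22.1 CPM on the control diet (log2 fold change -0.52 ± 0.11 SE, edgeR adjusted p = 0.0137). It kept its call in all 8 fits without 1 library and lost it with both control J and high fat G left out (edgeR adjusted p = 0.073).

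The list of proteases that clade A serpins hold had 12 tested genes, among them Proz, which encodes a cofactor and no protease. Of the 12, 1 rose, 1 fell and 10 did not pass, with a median log2 fold change of -0.16. Proc, the anticoagulant protein C, rose by 0.24 on the log2 scale (edgeR adjusted p = 0.0378), and Cela1, an elastase gene, fell by 0.44 (edgeR adjusted p = 0.0337). Each kept its call in 2 of the 8 fits without 1 library, and without control J neither was called (edgeR adjusted p of Cela1 = 0.085). Elane and Ctsg, the neutrophil elastase and cathepsin G that alpha-1-antitrypsin and its relatives are best known to hold, had no counts in any library.

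Among genes that handle the protein, 2 of 20 tested genes of export and clearance in the endoplasmic reticulum fell, none rose and 18 did not pass, a share near the 9.99% over all genes, with a median log2 fold change of -0.02. Hspa5, the chaperone BiP, was at 467 ± 43.8 CPM on the high fat diet and 718 ± 138 CPM on the control diet (log2 fold change -0.62 ± 0.12 SE, edgeR adjusted p = 0.0128), and Pdia4 fell by 0.22 (edgeR adjusted p = 0.0345). Hspa5 kept its call in all 8 fits without 1 library and Pdia4 in 2 of them. Without both control J and high fat G 0 were called. Of 10 receptors that take up serpin complexes and filtered protein 2 fell, none rose and 8 did not pass, with a median log2 fold change of 0.07. Cubn, the proximal tubule receptor cubilin, fell by 0.26 on the log2 scale (edgeR adjusted p = 0.0182, or 0.0512 without high fat F). Without control J 2 of the receptors were called, and with high fat G also left out 1.

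Around the hormone carriers, whose own genes were silent or nearly so, Dusp1 and Hsd11b1 rose and Tsc22d3 fell among 11 tested genes of glucocorticoid transport and response, while 8 did not pass and the median log2 fold change was 0.05. Dusp1, an early phosphatase gene, rose by 0.98, Hsd11b1, which regenerates active glucocorticoid, by 0.96, and Tsc22d3 fell by 0.39 on the log2 scale (edgeR adjusted p = 0.0054, 0.0206 and 0.0348). Dusp1 kept its call in all 8 fits without 1 library, Hsd11b1 in 5 (not without control I, J or L) and Tsc22d3 in 2. The count was 1 without control I or control J, and 2 without both control J and high fat G. Of 11 tested genes of thyroid hormone transport and response 3 rose, none fell and 8 did not pass, with a median log2 fold change of 0.16. The carrier gene Ttr, encoding transthyretin, rose by 0.87 on the log2 scale, and Slco1a1, an organic anion transporter, by 1.04 (edgeR adjusted p = 0.0115 and 0.0123). Both kept their call in all 8 fits without 1 library. The list count was 2 without high fat G or control I, J or L, and 1 without both control J and high fat G.

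Plasma protein genes showed no common direction. Of 13 tested acute-phase genes, Lrg1 rose by 1.15 and Cp, ceruloplasmin, fell by 0.33 on the log2 scale (edgeR adjusted p = 0.0021 and 0.0487), and 11 did not pass, with a median log2 fold change of -0.10. Lrg1 kept its call in all 8 fits without 1 library and Cp in 1 of them, that without high fat A. Of 15 tested genes that the liver is known for secreting, 2 rose, 2 fell and 11 did not pass, with a median log2 fold change of -0.04. Pzp, a protease-binding macroglobulin, was at 300 ± 45.6 CPM on the high fat diet and 149 ± 27.8 CPM on the control diet, and Ttr rose too, while Gc, the vitamin D carrier, fell by 0.86 and Kng2, a kininogen, by 0.31 (edgeR adjusted p of Pzp = 0.0023, Gc 0.0161, Kng2 0.0481). Pzp, Ttr and Gc kept their calls in all 8 fits without 1 library and Kng2 in 2 of them. Without both control J and high fat G 1 gene of the list was called. Alb, the gene of albumin and the most abundant liver transcript, was at 9.03 ± 2.88 CPM on the high fat diet and 12.04 ± 2.45 CPM on the control diet and did not pass. Of the 25 genes on the list 4 had under 10 counts over all libraries together, among them Mup3, which had no counts. The summed level of the list was 1514 to 1724 CPM in the high fat libraries and 1457 to 1762 CPM in the control libraries.

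Markers of the tissue itself were checked beside these results. The 8 markers of the first segments of the proximal tubule summed to 21992 to 23360 CPM in the high fat libraries and 21677 to 22814 CPM in the control libraries, with 3 that rose and 1 that fell. Slc6a19, Slc4a4 and Slc34a1 rose by 0.40, 0.34 and 0.33 on the log2 scale (edgeR adjusted p = 0.0044, 0.0067 and 0.0495), and Cubn fell, as given above. Slc34a1 kept its call in 2 of the 8 fits without 1 library, and the count of called markers was lowest, at 2, without high fat F. The 8 of its last segment summed to 3291 to 3781 CPM in the high fat libraries and 2302 to 3479 CPM in the control libraries, with 3 that rose and 3 that fell. Slco1a1, given above, was among the 3 that rose, by 1.04 on the log2 scale. Slc22a13, among the 3 that fell, did so by 0.87 (edgeR adjusted p = 0.0179) and had levels among those most like Serpina1f. Of 6 markers of the thick ascending limb 4 fell and none rose, and their sum was 3049 to 3784 CPM in the high fat libraries and 3769 to 4461 CPM in the control libraries, with the sums of high fat A and control L nearly equal, as in Serpina1f. Umod, the most abundant of them, was at 2507 ± 226 CPM on the high fat diet and 2817 ± 238 CPM on the control diet and did not pass. The count of limb markers called was 2 without high fat F or without control I, 4 without control J, and 1 without both control J and high fat G. That of the last proximal segment was 4 without high fat F, high fat G or control I, and 3 without both control J and high fat G. The part of these markers in the Serpina values was not tested.

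Markers of other cells were lowest for neutrophils. The summed ranges of these did not overlap between the diets, where 17.5% of all tested genes had no overlap. Most of the sum was Csf3r. It was at 3.40 ± 0.482 CPM on the high fat diet and 2.20 ± 0.515 CPM on the control diet (SD, n = 4 each). Ltf, the other tested marker, did not pass (edgeR adjusted p = 0.827), so the sum is not read as a measure of neutrophils. The 9 neutrophil markers summed to 3.84 to 6.71 CPM in the high fat libraries and 2.68 to 3.68 CPM in the control libraries, with Elane at 0, and Csf3r rose by 0.63 on the log2 scale (edgeR adjusted p = 0.0469), a call kept in 1 of the 8 fits without 1 library, that without control M. The 8 macrophage markers summed to 87.3 to 115.5 CPM in the high fat libraries and 78.5 to 113.7 CPM in the control libraries, and 0 were called by edgeR, DESeq2 and limma-voom, with 0 at an unadjusted p under 0.05. The 8 fat cell markers summed to 38.0 to 41.7 CPM in the high fat libraries and 31.7 to 39.2 CPM in the control libraries, nearly all of it Fabp4, and 0 passed in edgeR, DESeq2 or limma-voom (1 at an unadjusted p under 0.05 in edgeR).

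The authors' own comparisons list some of these genes. The authors' deposited table by gene symbol, with 1133 genes, gives posterior folds of high fat over control of 0.221 for Serpina1a, 0.537 for Serpina1b and 0.413 for Serpina1f. The authors' deposited table by Ensembl gene, with 1175 genes, gives 0.233, 0.493 and 0.413 for the same genes. Neither of the authors' deposited tables lists Serpina1d, although its fold here was 0.537, close to that of Serpina1b.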

How the data were processed

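RNA was measured in 8 libraries of mouse renal cortex, 4 per diet. The tools named in the submitters' processing notes are CASAVA 1.8.2 and RSEM 1.2.9, on mm10. For each gene symbol the authors deposited expected counts from RSEM, which need not be whole numbers, and FPKM values for the same symbols. The authors also deposited comparison tables with a posterior fold (a ratio) and a posterior probability of equal expression, used here as a score, per the file headers. Neither the tool behind these tables nor the read length is given in the sources used here.

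Rn45s was removed, expected counts were rounded, and all genes passing filterByExpr were fitted with edgeR 4.0.16 in R 4.3.3 (TMM factors, quasi-likelihood F test, diet as the only term, Benjamini-Hochberg adjusted p under 0.05). CPM are TMM-normalised counts, per 1e6. SE was the log2 fold change's size over the root of F. The rescaled FPKM are the deposited FPKM multiplied by the ratio of the full total to the normalised total without Rn45s. Depth was 23503593 to 30781585 counts a library, which limits the precision of low genes. The fit was tested on simulated data. Alternatives were DESeq2 1.42.0, its size factors, limma 3.58.1 (voom, and log2(FPKM + 0.1) or log2(FPKM + 1)), Rn45s kept, other filters and leaving out each library. Rescaled FPKM and a fit lacking both control J and high fat G were added after seeing the data.

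Coding sequences came from GENCODE M21 (GRCm38) and promoters from RefSeq (GRCm38.p6). The members and 16 gene lists (240 genes, 1 without a row) were chosen with earlier results of these data known. Named are all members, up to 4 called genes of smallest p in each list, and the 5 genes most correlated with Serpina1a. Serpina3g, Hnf4a, Alb, Umod, Fabp4, Elane, Ctsg, Mup3 and Proz, and likeness to Serpina1f, were chosen after their values were seen. A few genes counted in the lists are not reported here by name.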

Additional observations from a re-analysis of the deposited data

How the results depend on the processing

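Direction was lower on the high fat diet for Serpina1a, Serpina1b, Serpina1d, Serpina1f and the sum of Serpina1a to Serpina1e in all alternatives run. With limma on log2(FPKM + 0.1) as deposited, 91 genes and 2 Serpina members were called, and with log2(FPKM + 1) 98 genes and 2 members, with log2 fold changes of -1.55 for Serpina1a and -0.41 for Serpina1b. With FPKM rescaled without Rn45s, 1394 genes and 4 members were called. Without control J and high fat G together, 417 genes and 1 member were called, and Serpina1c was at 0.20. Leaving out each library in turn gave 1 to 4 members called and 739 to 1528 genes called, with the lowest gene count without high fat F. DESeq2 called 1826 genes and limma-voom 1452, each with 4 members. The members were chosen on this contrast, so these counts of calls support nothing about them. Of the list counts under the alternatives, 213 were within 1.5 times that reported and 75 were not. The cause of these changes was not tested. No paired analysis was possible because the library letters differ between the diets. Serpina1b and Serpina1c rest on 18.5 to 80.5 counts per library, which limits their precision.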
